A study of Mus musculus with 9 samples.

Results

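Testes of Pfn3-/- (KO) males were compared here with testes of Pfn3+/- (Het) males, 3 animals of each, and every gene with enough signal was followed. The table held 38674 genes, of which 24352 had signal in at least 1 of these 6 animals. A gene was tested when at least 3 of the 6 animals reached a normalised read count of 10, which left 14343 genes (37.1%). All mice in the series were C57BL/6 males, and the 3 Pfn3+/+ (WT) animals are given beside the others for Pfn3, for the genes past the cutoffs and for some further genes. The study used sexually mature males throughout, the age of each RNA animal is not given, and no treatment is described. The Pfn3 alleles were made by injecting Cas9 mRNA with a pair of guide RNAs into zygotes, several deletion lines were kept, and which of them the RNA animals carried is not given in the sources used here. The Het animals therefore carry 1 edited allele, and no transgene or Cre is described. RNA came from whole testis after the tunica albuginea was removed, so a lower value may mean fewer cells of a type or less RNA per cell, which cannot be told apart.

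Profilins bind actin monomers and guide their addition to growing filaments. PFN3 is a testis profilin found in haploid male germ cells, which during spermiogenesis build an acrosome from Golgi-derived vesicles, shape the nucleus with a microtubule sleeve called the manchette, replace histones with protamines and assemble a flagellum. A heterozygote keeps 1 intact copy, so the contrast between KO and Het asks what changes when the remaining copy is lost. Whether the Het and KO animals were littermates is not given in the sources used here.

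QuantSeq libraries, which tag polyadenylated transcripts close to their 3′ ends, were sequenced, and the values are counts divided by 1 size factor per animal (normalised read counts). Counts on genes totalled 3386131 to 4287335 in the 6 animals, and 3 counts, used as the floor, equalled 2.58 to 3.17 normalised counts. Such floors cover counting error only. Het replicate 1 stood apart from the rest. Across the tested genes its values correlated with the other 5 animals at r between 0.797 and 0.825, against 0.841 to 0.906 among the others, and 3.42% of tested genes were at 0 in it, against 0.363% to 1.67% elsewhere. KO replicate 2 was the KO animal least like its group, since 65.3% and 61% of well-covered genes differed from KO replicates 1 and 3 by more than 2 SD of counting error, against 39.3% between those other two. The highest correlation of all, 0.906, was between a Het and a KO animal. These correlations are across genes, which are not independent replicates, and describe the libraries only.

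Pfn3 itself was present in every animal. Its normalised read counts were 136, 339 and 326 in Het, 74.7, 215 and 279 in KO, and 592, 383 and 373 in WT. The KO range overlapped the Het range, and the KO mean of 189 ± 104 (SD, n = 3) lay under the Het mean of 267 ± 114 (SD, n = 3) by a log2 difference of -0.58 ± 0.59 (SE), with adjusted p = 0.973 in limma. The gene (GRCm38, chr13:55414688-55415232, minus strand) has 1 exon of 545 bases, and its coding sequence with the stop codon spans 414 bases from 55414753 to 55415166. It lies wholly inside the span of Slc34a1 on the opposite strand, which never exceeded 9.67 normalised counts in these 6 animals. The last 150 coding bases (chr13:55414753-55414902, GENCODE M21) are shown because the reads come from this end of the transcript, with the stop codon in capitals.

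Pfn3 coding end: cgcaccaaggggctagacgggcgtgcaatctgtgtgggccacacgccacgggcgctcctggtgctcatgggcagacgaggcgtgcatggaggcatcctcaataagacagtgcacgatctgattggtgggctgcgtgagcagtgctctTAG

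The deletions lie in the coding sequence, and in the paper's alignment the longest of them reaches into the stretch shown. Where the Pfn3 reads fall was not examined, so the Pfn3 count does not check the genotype labels. The paper reports the loss of Pfn3 in its mutants by qRT-PCR, western blot and immunohistochemistry.

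Across the 14343 tested genes, 8 (0.0558%) passed both cutoffs, an adjusted p below 0.05 with more than 1.5 on the log2 scale gained or lost (limma with Benjamini-Hochberg adjustment). The 5 that rose in KO (0.0349% of genes tested) were Gm17435, Nr0b1, Timm17b, Zmiz2 and Ap2s1. The 3 that fell (0.0209%) were Maf1, Prss46 and Cylc1. Among the Het and KO animals, Gm17435, Nr0b1 and Timm17b reached 10 only in KO, and Maf1 only in Het. The filter lets in such a gene only when all 3 animals of that genotype are high. The separation and p of these genes are therefore not independent of the filter. At an unadjusted p under 0.05 there were 510 genes (3.56%), 249 higher (1.74%) and 261 lower (1.82%) in KO. All 3 KO animals lay above all 3 Het animals in 735 genes (5.12%) and below them in 703 (4.9%). The median log2 fold change over all tested genes was -0.0027, and 49.7% of genes had a higher KO mean. A change of more than 1.5 on the log2 scale was seen in 679 genes, of which 8 passed the adjusted p. The plot of fold change against p shows both wings of such genes.

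**Figure D1:**
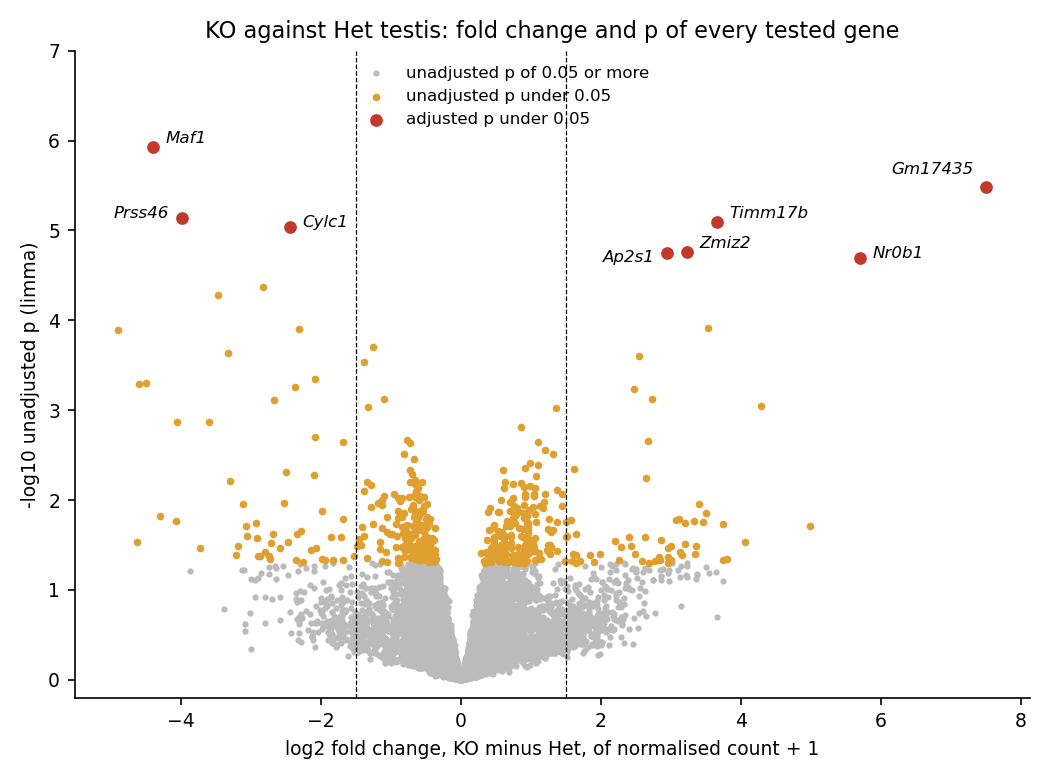
Log2 fold change (KO minus Het, x axis) against -log10 of the unadjusted limma p (y axis) for the 14343 tested genes. Grey points have p of 0.05 or more, orange points the 510 genes with p under 0.05, and the 8 red points, labelled by symbol, are the genes past both cutoffs. Dashed lines mark the log2 fold change cutoff of 1.5 in each direction.

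Of the 3 genes that fell past both cutoffs, Maf1 had the largest log2 fold change. It encodes the repressor of RNA polymerase III (chr15:76351294-76354380, plus strand). Its normalised read counts were 157, 229 and 158 in Het and 7.73, 6.77 and 8.04 in KO. The KO animals were tightly grouped about 21.1-fold below Het on the log2(value + 1) scale, a log2 fold change of -4.40 ± 0.24 (SE) with adjusted p = 0.0170 in limma. The WT animals did not sit on one side, with 12.4 in WT replicate 1 and 228 and 190 in the other two.

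Prss46 and Cylc1, the other genes that fell, are both germ cell genes. Prss46 (chr9:110844506-110856522, plus strand) belongs to a chromosome 9 cluster of testis serine proteases and read 143, 237.5 and 227.5 in Het and 12.9, 8.71 and 13.4 in KO. Its log2 fold change was -3.99 ± 0.29 (adjusted p = 0.0262, limma). Cylc1 (chrX:111110418-111125854, plus strand) encodes cylicin 1, a cytoskeletal protein of the sperm head calyx, and read 1062, 952 and 1084 in Het and 205, 151 and 219 in KO. Its log2 fold change was -2.44 ± 0.19 (adjusted p = 0.0262, limma). In both genes WT replicate 1 lay with or below the KO animals, at 4.95 for Prss46 and 116 for Cylc1, while WT replicates 2 and 3 lay with Het, at 248 and 198 for Prss46 and 1243 and 1439 for Cylc1.

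Of the genes that rose, Gm17435 moved furthest. It is a long non-coding RNA gene (chr8:72492934-72505499, plus strand) with 3 counts in all in the Het animals, at normalised read counts of 0.945, 1.86 and 0. The KO animals had 215, 422 and 366, and the WT animals 262.5, 72.4 and 187. The KO to Het ratio of pooled counts was 338.9, with a 95% counting interval of 115.7 to 1646, which leaves out the spread between animals. The log2 fold change was 7.51 ± 0.48 (adjusted p = 0.0234, limma). Gm17435 overlaps Med26, a Mediator subunit gene on the opposite strand, whose counts ran the other way, at 683, 569 and 680 in Het and 253, 293 and 202 in KO (log2 fold change -1.38 ± 0.19, adjusted p = 0.242, limma). With Med26 added to it, Gm17435 had a log2 difference of -0.16 and was no longer past the cutoffs. In WT replicate 1 Med26 read 103, and in the other WT animals 488 and 384.

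Nr0b1 (chrX:86191764-86195947, plus strand) encodes DAX1, an orphan nuclear receptor that represses steroidogenic genes. It was at 0 in all 3 Het animals and at 47.2, 65.8 and 42.9 in KO, which is at least 17.7-fold higher when each Het library is set to its floor of 3 counts (adjusted p = 0.0364, limma). The WT animals were at 0, 22.2 and 31.9. This call was lost with edgeR, at adjusted p = 0.138.

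Timm17b, Zmiz2 and Ap2s1 rose in KO from low Het values, with every KO animal well above every Het animal. Timm17b (chrX:7899357-7908351, plus strand), a subunit of the translocase of the mitochondrial inner membrane, read 8.50, 5.59 and 5.29 in Het and 81.6, 92.9 and 101 in KO (log2 fold change 3.66 ± 0.27, adjusted p = 0.0262, limma). Zmiz2 (chr11:6389074-6406158, plus strand), a coactivator of the androgen receptor, read 12.3, 9.31 and 10.6 in Het and 146, 102.5 and 85.8 in KO (3.23 ± 0.27, adjusted p = 0.0364, limma). Ap2s1 (chr7:16738410-16749294, plus strand), the small subunit of the clathrin adaptor AP-2, read 26.5, 47.5 and 34.9 in Het and 270, 257 and 315 in KO (2.95 ± 0.25, adjusted p = 0.0364, limma). In all 3 genes 1 WT animal lay at the Het level while the other two lay at or above the KO level. That animal was WT replicate 1 for Timm17b (8.67) and Ap2s1 (17.3), and WT replicate 3 for Zmiz2 (12.6).

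**Figure D2:**
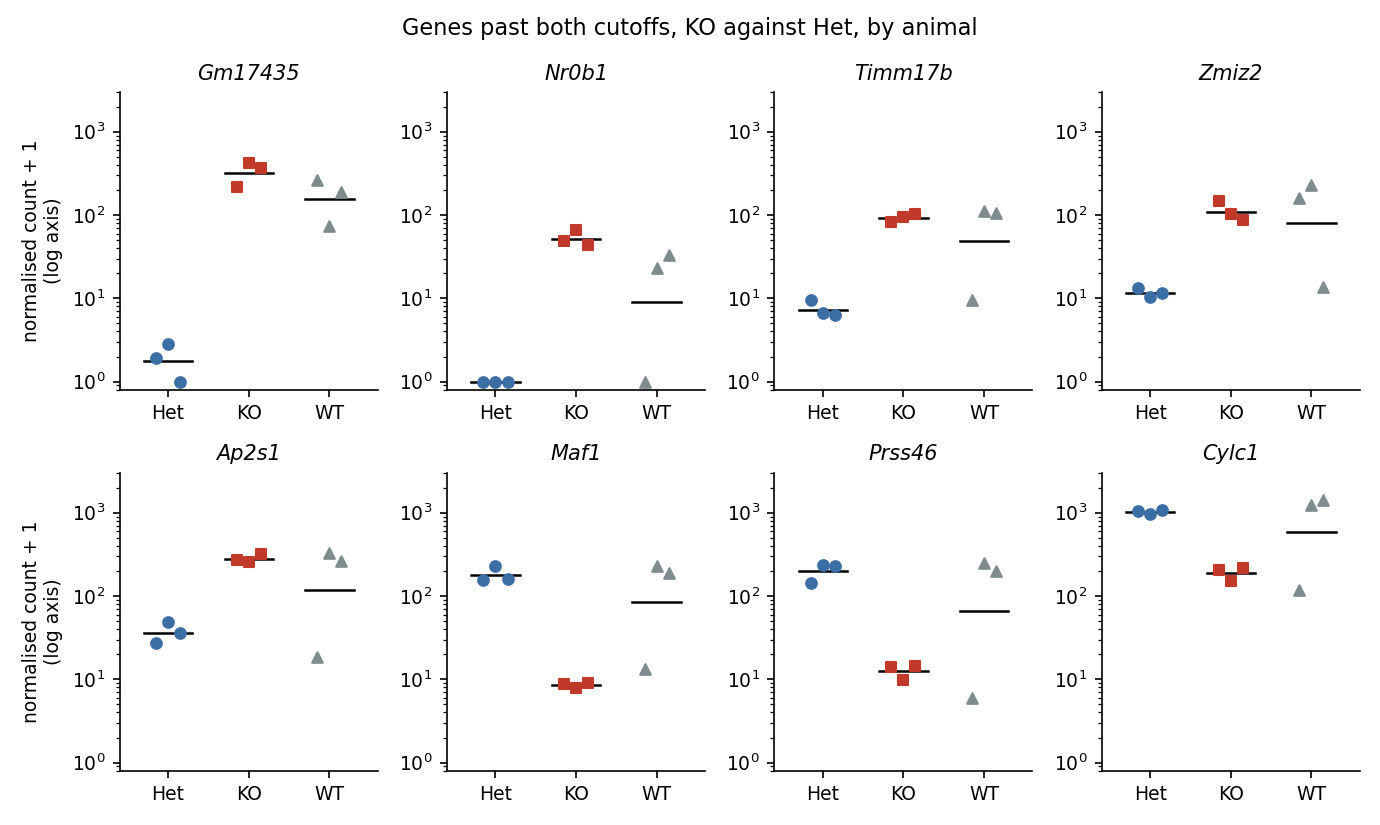
Normalised read count plus 1 on a log axis for the 8 genes past both cutoffs, by genotype, with 1 point per animal (replicates 1 to 3 from left to right) and a bar at the geometric mean. Het and KO do not overlap in any of the 8 panels, and in 7 of them the 3 WT animals are divided between the KO and the Het side.

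Seen over the 8 genes, the WT animals were divided between the KO and the Het side in 7, and all 3 were nearer to KO in Gm17435. In none of the 8 did all 3 WT animals lie nearer to Het. The WT animal apart from the other two was replicate 3 for Zmiz2 and replicate 1 for the rest of the divided genes. WT replicate 1 had 3375546 counts on genes and 18229 genes detected, against 4232041 and 19999 in WT replicate 2. WT replicate 3 had 4092798 counts and 20312 genes detected. The part of this library in the divided genes was not tested. Over the 510 genes with an unadjusted p under 0.05, all 3 WT animals lay nearer to the KO mean in 60, none did in 159, and they were divided in 291. Timm17b, Cylc1 and Nr0b1, 3 of the 8 genes, are on the X chromosome, which held 520 (3.63%) of the genes tested. Of those 520 genes 2.88% had an unadjusted p under 0.05, beside 3.56% of all tested genes.

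The genes nearest to the cutoffs were chosen by smallest unadjusted p among genes with non-overlapping animals and a log2 fold change over 1.5, so their separation is a description. Pcsk7, Cbr2, Npr2 and Dcaf4 passed the filter through the Het animals only, and Igf2bp1 through the KO animals only. On the lower side stood Ctsh, encoding the lysosomal protease cathepsin H, at 86.0, 98.7 and 58.2 in Het and 9.45, 11.6 and 9.83 in KO (log2 fold change -2.83 ± 0.28, adjusted p = 0.0685, limma). The WT animals, at 99.0, 107 and 59.9, all lay with Het for this gene. Pcsk7, a proprotein convertase, read 45.4, 74.5 and 60.3 in Het and 3.44, 3.87 and 6.26 in KO (adjusted p = 0.0746, limma), with WT at 38.4, 1.93 and 69.5. Cbr2, a carbonyl reductase, was at 28.3, 30.7 and 27.5 in Het and at 0 in every KO animal, at least 10.6-fold lower against a floor of 3 counts per library (adjusted p = 0.141, limma), and its WT values were 49.5, 27.0 and 19.3. Npr2, a natriuretic peptide receptor, was likewise at 0 in every KO animal and at 29.3, 14.9 and 23.3 in Het, at least 8.27-fold lower (adjusted p = 0.362, limma), with WT at 0, 7.72 and 19.3. Slc35f2, Dcaf4 and Cmc2 had log2 fold changes between -3.33 and -2.09, with adjusted p from 0.141 to 0.356 in limma. The WT animals were at 33.4, 6.75 and 16.4 for Slc35f2, far below the Het values of 73.6 to 88.9, and at 32.2, 1.93 and 55.0 for Dcaf4. For Cmc2 they were at 246, 190.0 and 96.5, above every KO animal. In Pcsk7, Npr2 and Dcaf4, as in most of the genes past the cutoffs, the WT animals were thus divided. In DESeq2 the adjusted p of these lower genes ran from 1.42e-07 (Ctsh) to 0.000528 (Npr2), and edgeR called none of them.

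On the higher side stood Igf2bp1, an mRNA-binding protein, at 2.83, 2.79 and 5.29 in Het and 65.3, 33.9 and 59.9 in KO (log2 fold change 3.53 ± 0.42, adjusted p = 0.141, limma). All 3 WT animals were at the KO level, with 70.6, 67.5 and 52.1. Hnrnpf, a splicing regulator, read 133, 188 and 77.3 in Het and 891, 491 and 771 in KO (adjusted p = 0.376, limma), with WT at 44.6, 199 and 1098. Scmh1, a Polycomb protein, read 43.5, 51.2 and 26.5 in Het and 92.8, 489.5 and 342 in KO, and Fanca, of the Fanconi anaemia core complex, 14.2, 15.8 and 11.6 in Het and 52.4, 61.9 and 26.8 in KO. For both of these the adjusted p was 0.973 in limma. In DESeq2 the adjusted p was 7.9e-06 for Igf2bp1, 1.11e-05 for Hnrnpf, 0.0024 for Scmh1 and 0.229 for Fanca, and edgeR called none of them.

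The study's text names 14 genes from these libraries, and since they were chosen on the same KO animals they are no independent evidence here. Of the 14, 12 were tested in KO against Het, none passed both cutoffs, and 1 was higher (Cfl1) and 1 lower (Prss50) at an unadjusted p under 0.05. Prss50 passed the filter through the Het animals only. The median log2 fold change of the 12 tested genes was 0.69, against -0.0027 for all tested genes. The mean KO minus Het difference over all 14 was -0.14. That set adds Srsf9 and Atg2a, which were not tested, so this mean and the median are not of the same genes.

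Trim27, an E3 ubiquitin ligase of the tripartite motif family, read 825, 764 and 879 in KO and 64.25, 1014 and 102 in Het. Het replicate 2 exceeded every KO animal and the other Het animals were far below, so the log2 fold change of 2.12 ± 0.99 had an adjusted p of 0.973 in limma. The WT animals were at 47.05, 25.1 and 30.9, below every Het and KO animal. Without Het replicate 2, the Het animal above every KO animal, the log2 fold change was 3.33, with adjusted p = 0.0170 in limma. That fit called 40 genes in place of 8, and no other fit that left out 1 animal called Trim27.

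Cfl1, encoding the non-muscle cofilin that severs actin filaments, read 9.45, 27.9 and 22.2 in Het and 137, 89.97 and 160 in KO. Its log2 fold change of 2.72 ± 0.44 had an adjusted p of 0.444 in limma, 0.459 in edgeR and 8.84e-05 in DESeq2. The WT animals, at 19.8, 13.5 and 12.6, lay with Het. Prss50, a testis serine protease gene beside Prss46 on chromosome 9, read 26.5, 66.1 and 51.9 in Het, 5.15, 8.71 and 5.36 in KO and 125, 56.0 and 88.8 in WT (log2 fold change -2.67 ± 0.44, adjusted p = 0.445, limma). In this gene also, Het and WT lay together above KO. The adjusted p of Prss50 was 0.00235 in DESeq2 and 0.424 in edgeR.

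Several of the other genes in this set had 1 Het animal far from the other two. Srsf9, a splicing factor, read 425, 3.73 and 358 in Het and 2.58, 1.94 and 0.894 in KO, and Atg2a, a lipid transfer protein of autophagosome formation, 3.78, 155.5 and 9.52 in Het and 6.87, 4.84 and 4.47 in KO. Neither reached 10 in 3 animals, so neither was tested. Copa, the alpha subunit of the COPI coat, read 20.8, 401 and 27.5 in Het and 47.2, 29.99 and 36.6 in KO. For Slc25a36, a mitochondrial nucleotide carrier, the Het values were 12.3, 58.7 and 5.29 and the KO values 12.02, 5.80 and 10.7. Exosc1, of the RNA exosome, read 5.67, 134 and 77.3 in Het and 17.2, 15.5 and 13.4 in KO. For Dpm2, which serves mannosyl donor synthesis, Het replicate 1 read 125 and the others 10.2 and 8.47, with KO at 18.9, 6.77 and 5.36. The WT animals read 214, 365 and 448 for Copa, 54.5, 55.95 and 61.8 for Slc25a36, and 11.1, 133 and 260 for Atg2a. In these genes Het replicate 2 lay inside the WT range. For Srsf9 WT read 262.5, 318 and 285, below Het replicates 1 and 3. For Exosc1 WT read 161, 156 and 148, and for Dpm2 234, 158 and 160, above every Het and KO animal in both genes.

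Mul1, a mitochondrial ubiquitin ligase, read 163.5, 5.59 and 29.6 in Het and 29.2, 213 and 290 in KO, so neither genotype was uniform. Its WT values were 6.19, 6.75 and 6.76, below every KO animal. B3gnt9, a glycosyltransferase, read 0.945, 24.2 and 23.3 in Het and 25.8, 38.7 and 31.3 in KO, with WT at 1.24, 0.965 and 0. Hhatl was at 0 in Het replicate 1 and in all 3 WT animals, and between 26.1 and 44.5 in the other Het and the KO animals. Sap30, of the SIN3 histone deacetylase complex, read 0, 18.6 and 20.1 in Het and 26.6, 11.6 and 8.04 in KO, with WT at 0, 6.75 and 13.5. Qrich1 read 57.6, 54.9 and 69.8 in Het and 85.0, 68.7 and 90.3 in KO, while the WT animals were at 631, 655 and 507. For these 5 genes the adjusted p was 0.973 in limma.

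**Figure D3:**
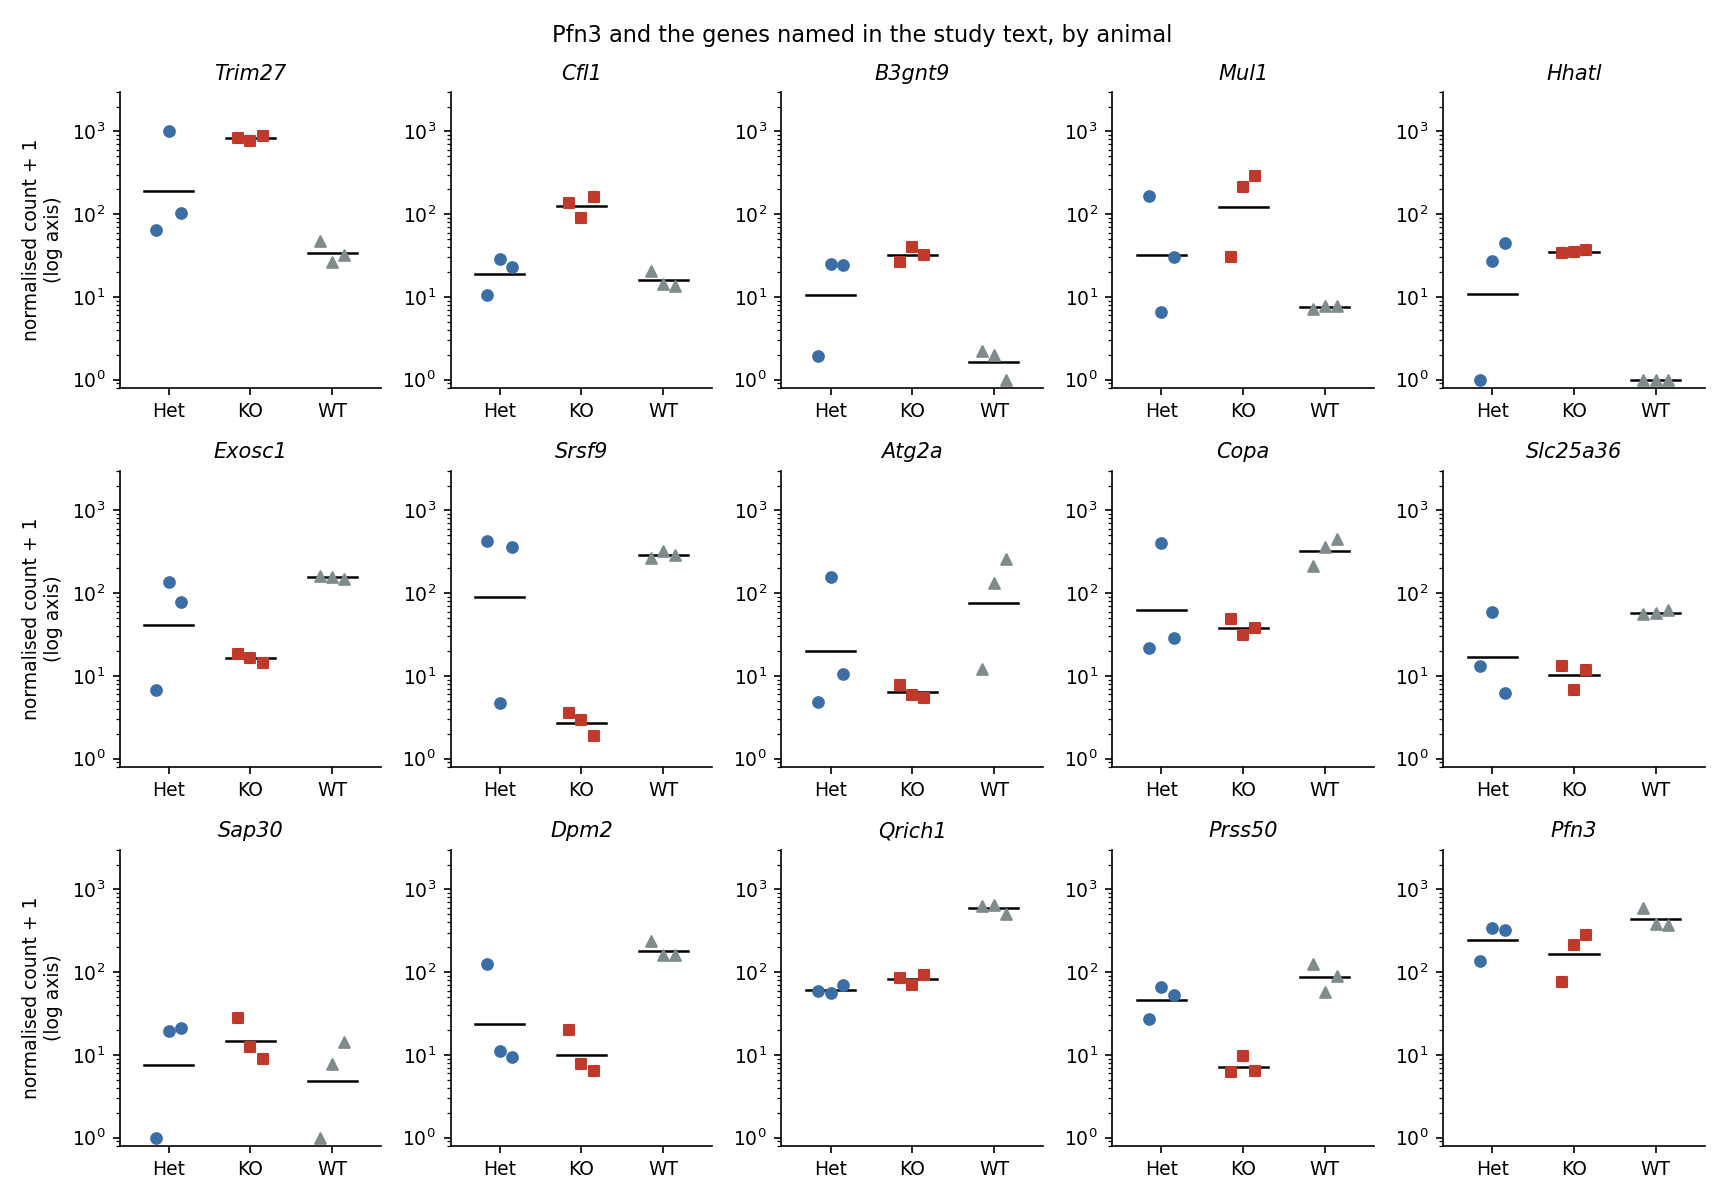
Normalised read count plus 1 on a log axis, by genotype, for the 14 genes the study's text names and for Pfn3, with 1 point per animal (replicates 1 to 3 from left to right) and a bar at the geometric mean. Het and KO do not overlap for Cfl1, Prss50, B3gnt9 and Srsf9, while for Trim27, Copa, Atg2a, Dpm2 and Slc25a36 a single Het animal lies far above the other two.

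Genes were then read by their role in spermiogenesis. None of the members of any list passed both cutoffs. The counts below are at an unadjusted p under 0.05, to be read beside the 1.74% higher and 1.82% lower among all tested genes, and each list's median beside -0.0027. Medians are over tested members, while mean differences take in every listed gene with a row of values, also those below the filter.

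Most acrosome and flagellum genes had negative log2 fold changes, without a call. Among 30 tested acrosome genes, 25 had a negative log2 fold change, 2 were lower and none higher at an unadjusted p under 0.05. The median was -0.19 (mean difference over the list -0.22, within an SD between animals of 0.252). Of all tested genes 49.7% had a higher KO mean. As log2 over the geometric mean of the Het and KO animals, the summed acrosome list was at -0.41 in KO replicate 2. It was at 0.09 and 0.10 in KO replicates 1 and 3, and at -0.14, 0.235 and 0.12 in Het. The lower pair was Lyzl6, a sperm lysozyme-like protein, at 645, 694 and 801 in Het and 469, 388 and 512 in KO (log2 fold change -0.65 ± 0.17, adjusted p = 0.973, limma), and Sppl2c, a testis intramembrane protease, at 512, 642.5 and 505 in Het and 328, 325 and 474 in KO. Among 41 flagellum genes, 26 had a negative log2 fold change, 3 were lower and none higher, and the median was -0.17 (mean difference -0.05, within an SD between animals of 0.412). Cabyr, a fibrous sheath protein, read 681, 840 and 691 in Het and 380.5, 390 and 496 in KO (-0.81 ± 0.17, unadjusted p = 0.00308, adjusted p = 0.973, limma). Smcp, a cysteine-rich protein of sperm mitochondria, read 8313, 10220 and 10140 in Het and 5458, 5136 and 7537 in KO, and Odf1, an outer dense fibre protein, 4319, 5954 and 5444 in Het and 2882, 3118 and 4070 in KO. For these 5 genes, named for the smallest p in their lists, the groups did not overlap, but none passed the adjusted test. All KO animals lay below all Het animals in 5 of the 30 acrosome and 4 of the 41 flagellum genes, and above them in 0 of either list. Among all tested genes the shares were 4.9% below and 5.12% above.

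Marker genes of haploid cells were also mostly below 0. These lists share members with those above (Acrv1, Spaca1, Izumo3 and Spata16 with the acrosome list, Catsper3 and Catsper4 with the flagellum list), and the elongating spermatid markers all belong to the spermatid chromatin list, so their counts are not independent. Of 11 tested round spermatid markers 10 had a negative log2 fold change (median -0.33), as did all 4 elongating spermatid markers, Tnp1, Tnp2, Prm1 and Prm2 (median -0.27), and 11 of 14 spermatid chromatin genes (median -0.21), with none under an unadjusted p of 0.05. The sums of these lists turned on KO replicate 2. On a log2 scale relative to the geometric mean of the 6 animals, the summed elongating spermatid markers were at -0.58 in KO replicate 2, at 0.06 and 0.12 in the other KO animals, and at -0.04, 0.22 and 0.21 in Het. The summed round spermatid markers were at -0.65 in KO replicate 2, at 0.10 and 0.09 in the other KO animals, and at -0.02, 0.29 and 0.19 in Het. Among the 6 animals, summed Sertoli cell markers were in turn highest in that one, at 0.56, as were Leydig cell markers at 0.43 and macrophage markers at 0.60. Without KO replicate 2 the log2 fold change of Tnp1 changed sign, to 0.0485, while Prm1, Prm2 and Tnp2 stayed below 0 whichever animal was left out, at most -0.06, -0.09 and -0.09. The part of this animal's makeup in the other results was not tested.

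By animal, the flagellum list ran differently from the haploid markers. Its summed level was -0.74 in Het replicate 1, the lowest of the 6, and 0.03, -0.15 and 0.20 in KO, although Cabyr, Smcp and Odf1 were lower in KO than in that Het animal. A single gene, Ldhc, was a large part of this sum in the other animals. Ldhc read 1925, 27290 and 36440 in Het and 29800, 27980 and 34690 in KO, and the sum without it was not taken. The mean of log2(value + 1) over the list, which weighs genes alike, was also lowest in Het replicate 1, at 8.41. It was 8.72 to 9.49 in the other Het and KO animals.

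Somatic and earlier germ cell markers showed no call. All 7 tested Leydig cell markers had a positive log2 fold change, between 0.04 and 0.36 (median 0.22), and none reached an unadjusted p under 0.05. Star, the carrier of cholesterol into mitochondria, read 290, 324 and 273 in Het and 301, 432 and 338 in KO. Of 12 Sertoli cell markers 10 were above 0 (median 0.14). Rhox5, a Sertoli homeobox gene on the X chromosome, read 11.3, 163 and 172.5 in Het and 228, 273 and 201 in KO, so the difference lay mostly in Het replicate 1. Spermatogonia markers divided evenly, 5 above and 5 below 0 (median -0.02). Of 13 spermatocyte markers 12 were above 0 (median 0.23), and 1, Sycp2 of the synaptonemal complex, was higher at an unadjusted p under 0.05, with 1434, 831 and 1227 in Het and 1840, 1584 and 1830 in KO.

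All 5 peritubular myoid cell markers had a negative log2 fold change (median -0.49). The smooth muscle actin gene Actg2 was the one with an unadjusted p under 0.05, at 398, 472 and 415 in Het and 317, 246 and 364 in KO. The summed myoid markers were highest in Het replicate 1, at 0.64, and at -0.41, -0.24 and -0.09 in KO. Of 6 tested macrophage markers 5 were above 0 (median 0.28), and the complement gene C1qc was at 0 in Het replicates 1 and 3. The 4 tested erythrocyte markers had log2 fold changes between -0.23 and -0.05. Of 3 tested endothelial markers 2 were below 0 (median -0.30). Only 2 of 8 epididymis markers reached the filter, Rnase10 and Lcn2, and their log2 fold changes were -0.22 and 0.62.

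**Figure D4:**
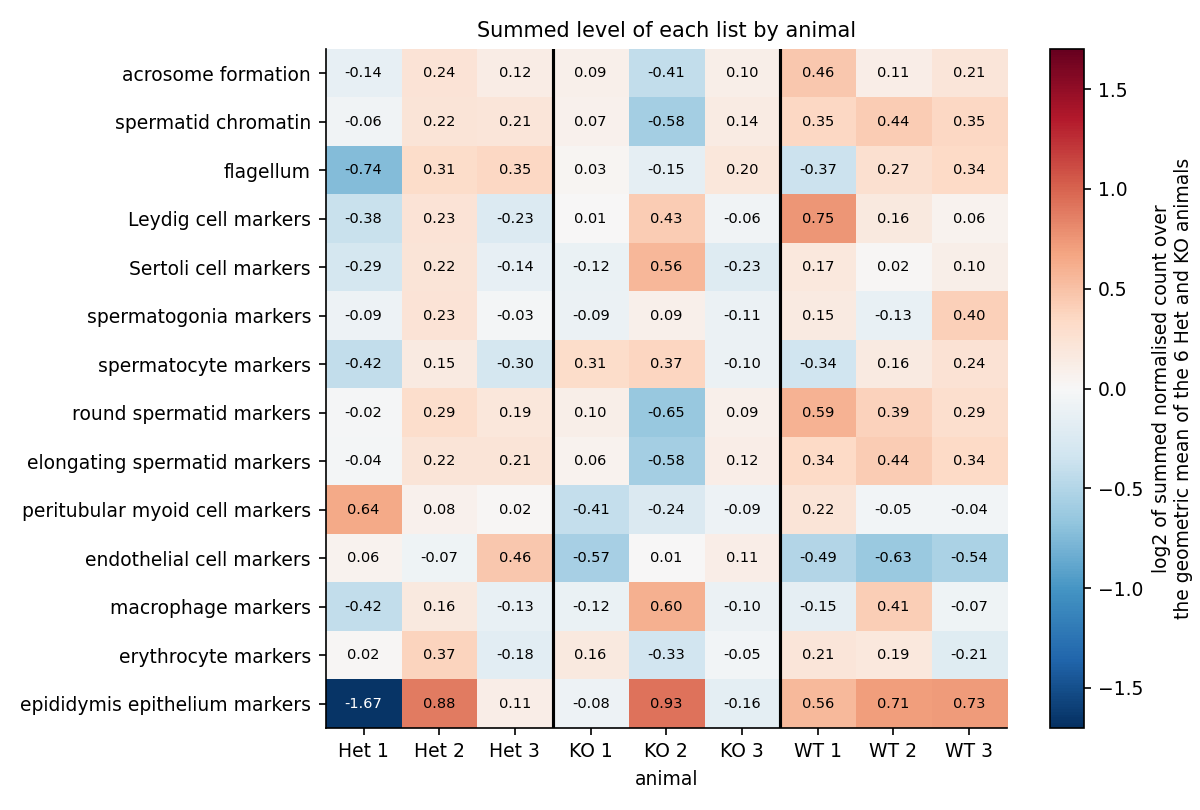
Summed normalised read count of each list (rows) in each animal (columns), as log2 relative to the geometric mean of the 6 Het and KO animals, with red above and blue below it. KO replicate 2 has the lowest round spermatid (-0.65), elongating spermatid (-0.58) and spermatid chromatin (-0.58) sums, and Het replicate 1 the lowest flagellum sum (-0.74) and the highest myoid sum (0.64) of the 6. The flagellum sum holds Ldhc, at 1925 in Het replicate 1 and 27290 to 36440 in the other Het and KO animals.

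Autophagy clears cytoplasm and organelles and has been tied to acrosome formation. Among 35 tested core autophagy genes 1 was higher and 2 were lower at an unadjusted p under 0.05 (median 0.07). The higher gene was Map1lc3b, which encodes the LC3B protein that coats autophagosomes, at 119, 136 and 91.0 in Het and 346, 237 and 312 in KO. Its log2 fold change of 1.37 ± 0.23 was below the fold cutoff. The adjusted p was 0.487 in limma, 0.459 in edgeR and 0.0018 in DESeq2. The WT animals were at 81.7, 397.5 and 346, so WT replicate 1 lay with Het and the others with KO. Wipi1, a phosphoinositide-binding protein of early autophagosomes, read 192, 136 and 129 in Het and 93.6, 117 and 98.3 in KO. Uvrag, a Beclin 1 partner, read 56.7, 38.2 and 54.0 in Het and 8.59, 44.5 and 5.36 in KO, with KO replicate 2 inside the Het range.

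In the AKT, mTOR and AMPK list, 18 of 27 tested genes were above 0 (median 0.21) and 1 was higher at an unadjusted p under 0.05. This was Camkk2, an upstream kinase of AMPK, at 86.9, 141 and 131 in Het and 252.5, 146 and 295 in KO (log2 fold change 0.91 ± 0.33, adjusted p = 0.973, limma). Tsc2, an inhibitor of mTORC1 signalling, read 108, 86.6 and 85.7 in Het and 34.4, 97.7 and 34.0 in KO, again with KO replicate 2 at the Het level.

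The coat and Golgi list divided almost evenly, with 19 genes above and 17 below 0 (median 0.01, and a mean difference over the list of -0.13). The 3 genes with an unadjusted p under 0.05 were all lower in KO. Rab6a, a Golgi GTPase, read 85.0, 348 and 349 in Het and 14.6, 59.0 and 10.7 in KO (log2 fold change -3.30 ± 0.81). Its adjusted p was 0.973 in limma and 0.0241 in DESeq2, with no call in edgeR. Copb1, the beta subunit of the COPI coat, read 139, 144 and 145 in Het and 89.3, 115 and 69.7 in KO, and Sec24b, a cargo receptor of COPII, 380, 249 and 330 in Het and 143, 213 and 223 in KO.

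Among 32 tested profilins, cofilins and actin partners, 2 were higher and none lower at an unadjusted p under 0.05, with 14 above and 18 below 0 (median -0.06, mean difference 0.09). Beside Cfl1 this was Twf2, a twinfilin that caps actin filaments, at 30.2, 32.6 and 32.8 in Het and 42.1, 55.1 and 42.9 in KO (log2 fold change 0.53 ± 0.21, adjusted p = 0.973, limma). Actl7a, an actin-like protein of the sperm head, was at 674, 828 and 784 in Het and 636, 457 and 624 in KO.

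Manchette and intraflagellar transport genes divided 16 above to 23 below 0 (median -0.03, mean difference 0.04), with 2 lower at an unadjusted p under 0.05. Among these was Ttc21a, of the intraflagellar transport complex A, at 110.5, 136 and 125 in Het and 92.8, 87.1 and 92.1 in KO. Of 36 mitochondrial dynamics genes 1, the fission regulator Mtfr1, was lower, at 1322, 1097 and 1289 in Het and 934.5, 411 and 730 in KO (median of the list 0.02). Of 28 tested RNA exosome and SR splicing factor genes 2 were higher, Tra2a at 471.5, 360 and 453 in Het and 597, 725 and 549 in KO, and Exosc2 at 26.5, 12.1 and 28.6 in Het and 36.1, 44.5 and 42.0 in KO (median 0.05). The mean difference of -0.15 was over 31 genes and takes in Srsf9, which was not tested. Srsf9 read 425, 3.73 and 358 in Het and 2.58, 1.94 and 0.894 in KO. In 6 of these 28 genes all KO animals lay above all Het animals and in none below them, beside 5.12% and 4.9% of all tested genes.

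**Figure D5:**
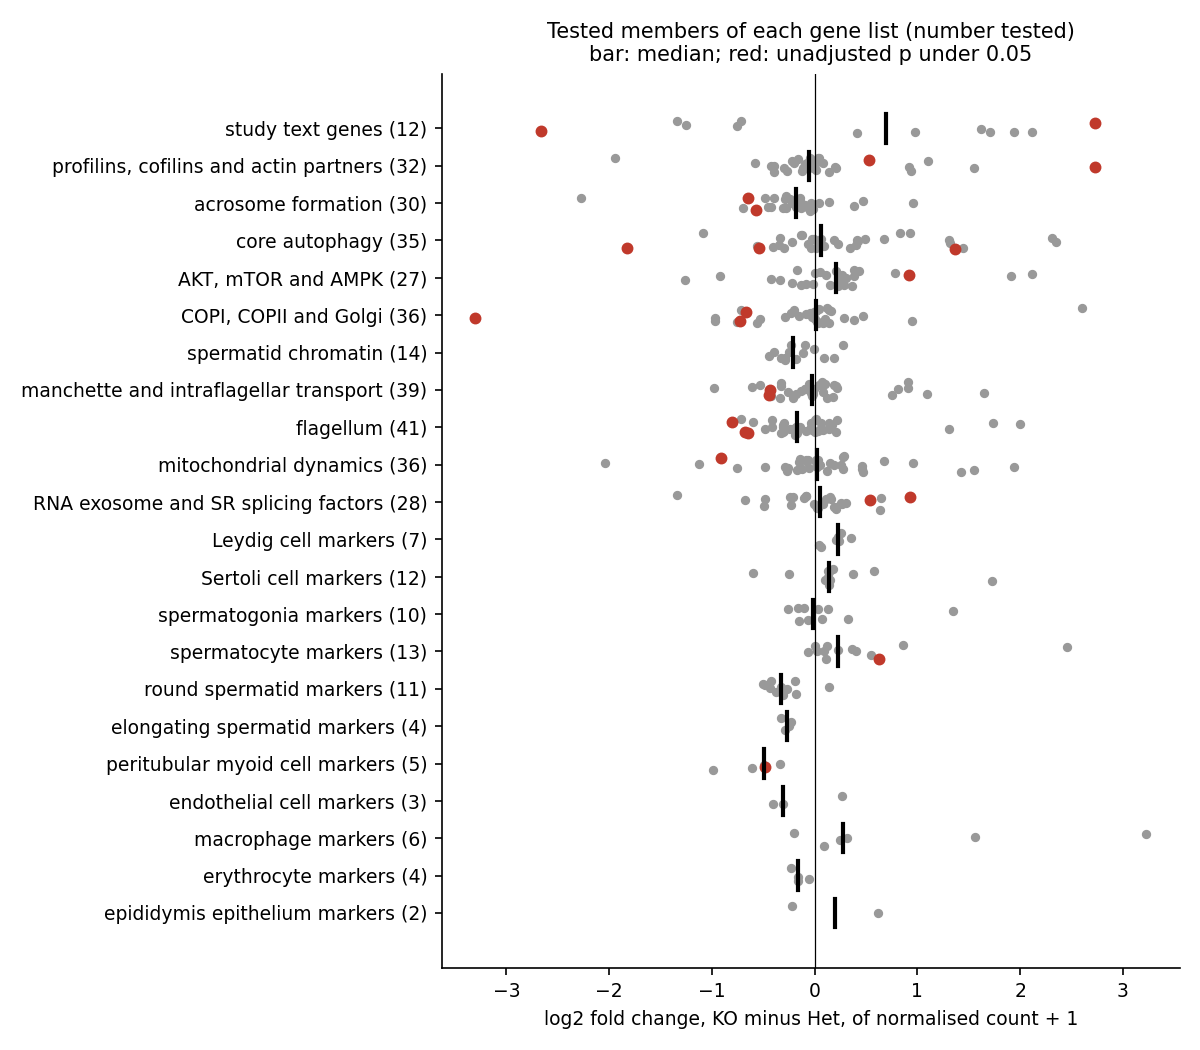
Log2 fold change (KO minus Het) of each tested member of the gene lists, 1 point per gene, with the number tested in brackets and a black bar at the median. Red points have an unadjusted p under 0.05. The medians lie between -0.49 (peritubular myoid cell markers) and 0.69 (genes named by the study).

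Many genes varied widely within a genotype. The 3 animals of a genotype spanned at least 3 on the log2 scale in 1362 tested genes (9.50%) in Het, 918 (6.40%) in KO and 1603 (11.2%) in WT. Leaving out 1 animal at a time, with the same 14343 genes, gave between 0 and 40 genes past both cutoffs. None of the 8 genes remained without Het replicate 3 or any 1 of the KO animals, 3 of the 8 remained without Het replicate 1, and all 8 remained without Het replicate 2. In these fits the log2 fold change ran from -4.49 to -4.22 for Maf1, -2.54 to -2.28 for Cylc1, 2.75 to 3.16 for Ap2s1 and 3.55 to 3.84 for Timm17b, while the largest adjusted p of any of the 8 lay between 0.125 (Maf1) and 0.437 (Nr0b1). On recovered counts edgeR called 7 genes, all among the 8, and DESeq2 called 43, including all 8.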

How the data were processed

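RNA from 9 testes was measured by QuantSeq 3′ RNA-seq. The authors trimmed reads with Trim Galore 0.4.5, aligned them with HISAT2 2.1 to GRCm38, quantified with StringTie 1.3.3 (counts come from coverage through the script of that package), removed pseudogenes, and the deposited signal is counts divided by 1 size factor per animal. Whole counts were recovered from 100% of the values (tolerance 0.001). KO and Het animals were compared with limma 3.58.1 (trend) in R 4.3.3 on log2(value + 1), which understates changes of low genes, with Benjamini-Hochberg adjustment over all tested genes. Alternatives used edgeR 4.0.16 and DESeq2 1.42.0 on recovered counts, other pseudocounts, filters, factors and sets of animals, and replicate numbers, which did not pair the animals. The code was tested on simulated data.

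Named genes were Pfn3, the genes in the study's text, up to 10 genes per direction past the cutoffs or next to them, up to 3 tested members of each list with the smallest p, and the elongating spermatid markers. The comparison, its members and the lists were chosen with earlier results of these data known. Genes were placed with GENCODE M21, which matched 38509 of 38674 rows. Labels give each animal as a separate sample, and p-values measure the spread among these animals only. Listed genes outside the table (Insl3, Acrbp, Izumo1, Pick1 and others) were not analysed here, and a named member of the manchette list is not reported here. The library strand setting used in counting is not given in the sources used here, so reads of overlapping genes cannot be told apart. The figures were drawn with matplotlib 3.10.9.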

Additional observations from a re-analysis of the deposited data

How the results depend on the processing

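With the 8 genes past both cutoffs (5 higher, 3 lower) as the value reported, a log2 fold change cutoff of 1 or none, TMM factors, pseudocounts of 0.5 and 5, edgeR and no filter on low values gave 7 to 9 genes. DESeq2 gave 43 (16 higher, 27 lower), the fit of all 9 animals 4 (2 higher), of which only 1, Gm17435, was among the 8, and a filter on a mean of at least 50 gave 0 (0 higher, 0 lower), with 310 genes at an unadjusted p under 0.05. The replicate block gave 0 (0 and 0, with 403 at an unadjusted p under 0.05); replicate numbers did not pair the animals (r of same-numbered deviations from -0.135 to 0.0669), so they share only a number. Leaving out 1 animal gave 0 to 40 genes, 0 to 33 higher and 0 to 7 lower, with 327 to 747 at an unadjusted p under 0.05. Summing overlapping genes and leaving out KO replicate 2 with Het replicate 1 were chosen after seeing the data. The first gave 7 genes, the second 0 (0 higher, 0 lower), with 885 at an unadjusted p under 0.05. The cause of these shifts was not tested.

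Log2 fold changes that changed sign belonged to genes past no cutoff, except Gm17435, at -0.16 when summed with Med26. On leaving out 1 animal they ranged from -0.54 to 0.0082 for Acta2, -1.81 to 0.81 for Cdh5, -1.48 to 0.62 for Copa, -0.31 to 0.11 for Hba-a1, -0.31 to 0.014 for Hbb-bt, -0.00075 to 2.75 for Hhatl, -0.30 to 1.28 for Lcn2, -0.47 to 1.73 for Sap30, -1.48 to 0.15 for Slc25a36, -0.38 to 0.0485 for Tnp1, -0.32 to 0.66 for Vwf and -1.09 to 0.21 for Wt1. Without KO replicate 2 and Het replicate 1 they were -0.36 for Sap30, 0.13 for Dpm2, -0.0707 for Cyp17a1, -0.38 for Vwf, 0.062 for Hbb-bt, -0.68 for Lcn2 and 0.0495 for Tnp1, and with overlapping genes summed 0.078 for Tsc2 and 0.39 for Csf1r. With 3 animals a genotype and 2.58 to 3.17 normalised counts as the floor, changes of genes near 10 normalised counts were at the limit of the data.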

Other observations

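Genes named here were chosen after their values were seen. Some germ cell and housekeeping genes were near 2 separate levels within a genotype. Ybx2, a germ cell mRNA-binding protein, read 17.0, 5225 and 66.7 in Het and 3960, 6793 and 38.4 in KO. Becn1, which encodes the autophagy protein Beclin 1, read 103, 868 and 57.1 in Het and 1079, 640 and 1001 in KO, where the adjusted p was 0.973 in limma. Dlst, a subunit of the 2-oxoglutarate dehydrogenase complex, read 42.5, 32.6 and 38.1 in Het and 371, 391.8 and 44.7 in KO. Fyttd1, an mRNA export factor, read 125, 115 and 119 in Het and 1358, 155 and 1207 in KO.

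Lipe, which encodes hormone-sensitive lipase, read 225, 285 and 301 in Het, 81.6, 53.2 and 129 in KO and 428, 270 and 317 in WT, with adjusted p = 0.0215 in DESeq2 and no call in limma or edgeR. Kat6b, a histone acetyltransferase, read 48.2, 56.8 and 80.4 in Het and 12.9, 6.77 and 14.3 in KO, with WT at 64.4, 45.3 and 61.8 (adjusted p = 0.000868 in DESeq2). In both genes every WT animal lay above every KO animal.

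On the X chromosome 15 of 520 tested genes (2.88%) had an unadjusted p under 0.05, 12 higher and 3 lower in KO, beside 3.56% of all tested genes (1.74% higher, 1.82% lower), with a median log2 fold change of 0.05. Among 2001 pairs of tested genes with overlapping spans, both members had an unadjusted p under 0.05 in 6, in opposite directions in 4 (Gm17435 and Med26, Orc4 and Mbd5, Nsun5 and Pom121, Lrrc56 and Lmntd2) and in the same direction in 2 (Tdg and Glt8d2, Cenpp and Ogn).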
